A study of Arabidopsis thaliana with 13 samples.

Results

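Described here are cell wall acetylation and wall loosening genes of 3 families, TBL, expansins and XTH. Their members are the probe sets that the platform annotation assigns to exactly 1 gene with a symbol of TBL, EXPA, EXPB, EXLA, EXLB or XTH followed by digits. There were 49 such genes, each with 1 probe set, among 13356 genes with a probe set of their own: 22 TBL genes, 18 expansins (10 EXPA, 4 EXPB, 3 EXLA and 1 EXLB) and 9 XTH genes. The gene table names 104 genes with such symbols, and the others were not analysed here. The rule itself uses gene symbols, not signals, but the members were chosen with earlier results of these data known. The primary cell wall of a growing plant cell is a network of cellulose microfibrils tied by xyloglucan and embedded in pectin. TBL (trichome birefringence-like) proteins include Golgi enzymes that place acetyl groups on wall polysaccharides, an activity not shown for every member. Expansins loosen the bonds between wall polymers without cutting them, and XTH enzymes (xyloglucan endotransglucosylases/hydrolases) cut xyloglucan chains and rejoin or hydrolyse them.

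Arabidopsis thaliana RNA was hybridised to 13 Affymetrix arrays, in a study of early targets of ANAC092 and ANAC059, a pair of NAC-domain regulators that speed up the senescence of leaves. Transgenic Col-0 seedlings 3 weeks old, grown on medium with antibiotic, overexpressed ANAC092 (3 arrays) or ANAC059 (2 arrays) on induction or held the inducible vector with no insert, and shoots of all of them were taken after 5 h in 10 µM estradiol. The ANAC092 arrays were normalized by the authors with 3 empty vector arrays and the ANAC059 arrays with 2, so changes were computed only inside a set. Leaf 11 of soil-grown plants 38 days old came from a T-DNA insertion line of ANAC059, a T-DNA insertion line of ANAC092 and Col-0 wild type, with 1 array each. The number of transgenic lines, the plants per array and the promoter of the inducible system are not given in the sources used here. All values are log2 signals, so that a difference of 1 is a 2-fold difference. The signal of a probe set depends on its probes too, so levels of different genes are not ranked.

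Some facts of the arrays touch every result. The titles mark the ANAC059 controls as empty vector replicates 1 and 2 normalized a second way, and the difference between these replicates had a correlation of 0.883 between the sets over the probe sets. The inductions thus share control samples and are not independent. The SD over the 49 members of the difference between ANAC092 induced replicates 1 and 3 was 0.136, while it was 0.427 between replicates 1 and 2 and 0.429 between replicates 2 and 3. For the controls of that set it was 0.165 between replicates 1 and 2, 0.266 between 1 and 3, and 0.244 between 2 and 3. Over all probe sets the SD for these controls was 0.178, 0.386 and 0.351, in the same order. For the induced arrays it was 0.129 between replicates 1 and 3, 0.364 between 1 and 2, and 0.343 between 2 and 3. The annotation used here names no probe set for ANAC092 or ANAC059 alone, and their levels were not examined. Of 14 shoot markers 3 were measured, with a log2 summed signal of 12.71 to 12.99 on the ANAC092 induced arrays and 12.94 to 13.33 on their empty vector arrays. Of 15 root markers 3 were measured, with sums of 11.82 to 11.95 on the ANAC092 induced arrays and 11.40 to 11.87 on their empty vector arrays. Among them PYK10, a beta-glucosidase gene of roots and hypocotyls, stood at 11.77 to 11.88 on the induced arrays and 11.31 to 11.82 on the empty vector arrays. Of 12 flower and pollen markers only EXPB5 was measured, at 5.50 to 5.68 on the induced arrays and 5.65 to 5.76 on the empty vector arrays. EXPB5 and the root markers EXPA7 and EXPA18 are themselves among the 49 members, so they are no separate measure of cell types. In such bulk shoot RNA, fewer cells of a type and less RNA per cell cannot be told apart.

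After ANAC092 induction 1 of the 49 members passed the threshold of 0.05 on the limma adjusted p, the xyloglucan enzyme gene XTH19, which fell. Across all 22746 probe sets 2.23% were called, 0.831% as lower and 1.4% as higher, so 1 of 49 is close to the background. The induced arrays lay below all empty vector arrays for 8 of 49 members (16.3%), against 12.4% of all probe sets, and above all of them for 0 of 49, against 7.98%. The 8 were XTH18, XTH19, XTH33, TBL25, TBL37, TBL38, TBL39 and EXPA8. An unadjusted limma p under 0.05 was found for 7 of 49 members, all lower, against 12% of all probe sets in either direction. Of the 22746 probe sets 1523 were lower and 1211 higher at that p. The median log2 change was -0.13 over the TBL genes, 0.05 over the expansins and -0.07 over the XTH genes, against -0.03 over all probe sets. The XTH median rests on single arrays: it was 0.0078 without induced replicate 1 and -0.17 without induced replicate 2. Over only the 5 XTH genes among brighter probe sets, on the same arrays, the median was -0.47.

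**Figure D1:**
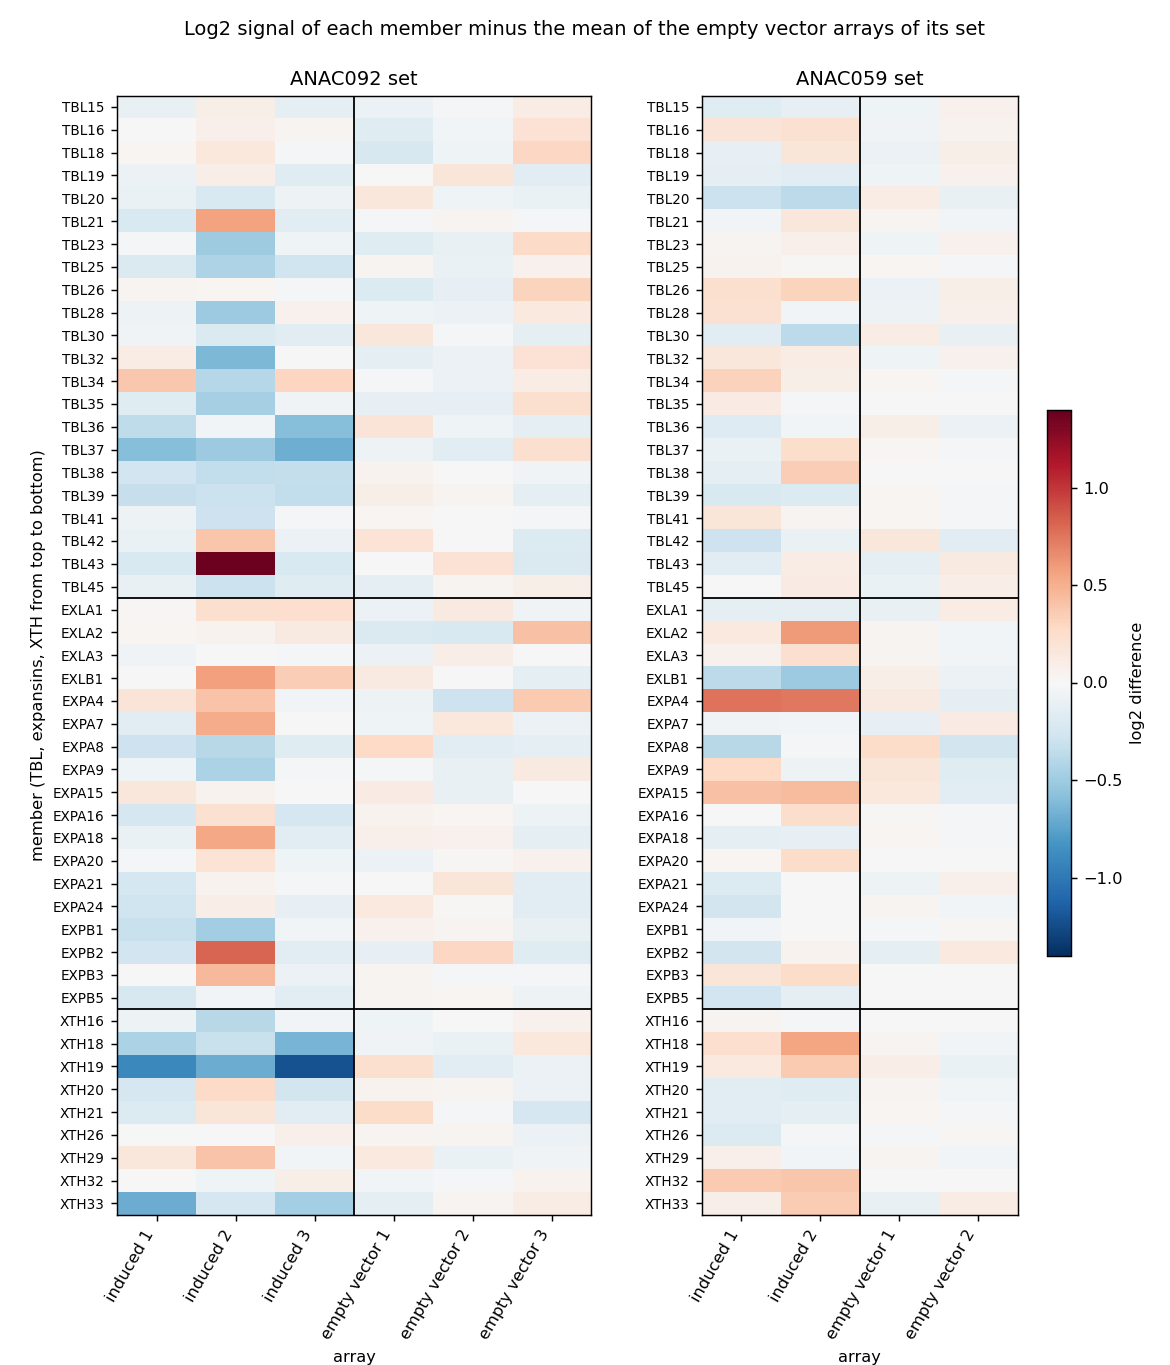
Each cell is the log2 signal of 1 member (rows) on 1 array (columns) minus the mean of the empty vector arrays of its set, with induced arrays left of the empty vector arrays in each panel. XTH19 is low on all 3 ANAC092 induced arrays, EXPA4 is high on both ANAC059 induced arrays, and TBL43 stands out on ANAC092 induced replicate 2.

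XTH19 (AT4G30290) belongs to a group of XTH genes known for expression in roots. It had 7.35, 7.56 and 7.03 on the ANAC092 induced arrays, against 8.48, 8.11 and 8.18 on the empty vector arrays. All 3 induced arrays lay below all 3 controls. The change was -0.94 ± 0.16 (SE, n = 3 per group, limma adjusted p = 0.0309), a level 1.92-fold lower in induced shoots, with a 95% interval of -1.32 to -0.56. The change kept its size, from -1.06 to -0.80, when single arrays were left out, but it passed only without induced replicate 2, with a limma adjusted p of 0.0394 to 0.125 over the 6 fits. It also missed the threshold after quantile normalization (-0.91, adjusted p = 0.0608), with induced replicates 1 and 3 averaged (-0.88, 0.0992) and against empty vector replicate 3 alone (-0.86, 0.166).

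Its neighbour XTH18 (AT4G30280), with no coding gene between them, gave 11.53, 11.66 and 11.32 on the ANAC092 induced arrays, against 11.93, 11.88 and 12.12 on the empty vector arrays. Here too the groups did not overlap, and the change was -0.47 ± 0.13 (SE, n = 3 per group, limma adjusted p = 0.150). XTH33 (AT1G10550) stood at 8.17, 8.62 and 8.39 on the ANAC092 induced arrays, against 8.72, 8.89 and 8.97 on the empty vector arrays. The nearest arrays were induced replicate 2 and empty vector replicate 1, and the change was -0.47 ± 0.14 (SE, n = 3 per group, limma adjusted p = 0.202). Neither XTH18 nor XTH33 passed in any of the 6 fits that left out 1 array. XTH18 and XTH19 are close relatives, and whether their probes detect each other's transcript was not tested.

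In the other 6 XTH genes the groups overlapped. XTH29 had 6.35, 6.59 and 6.16 on the ANAC092 induced arrays, against 6.33, 6.10 and 6.14 on the empty vector arrays, with 2 of the 3 induced arrays above all controls (change 0.18). XTH26, known from root hairs, differed by 0.03 and XTH32 by 0.01. XTH16, XTH20 and XTH21 differed by -0.16, -0.07 and -0.06, none past the threshold.

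The difference between 3' and 5' actin control probe sets, a measure that moves with RNA quality and labelling, was 1.01, 1.08 and 0.938 for one pair on the ANAC092 induced arrays, against 0.760, 0.858 and 0.908 on the empty vector arrays. Another pair gave 2.47, 2.89 and 2.44 on the induced arrays, against 1.96, 2.19 and 2.51 on the empty vector arrays. Of these actin pairs only the pair given first separates the groups of the ANAC092 set. In both pairs of GAPDH control probe sets the groups overlapped. The first GAPDH pair gave 0.129, 0.177 and 0.254 on the induced arrays, against 0.509, 0.066 and -0.140 on the empty vector arrays. The second gave 0.025, 0.163 and 0.077, against 0.073, 0.139 and 0.023. Of the shoot markers, PRK (a Calvin cycle kinase) differed by -0.65 ± 0.14 (SE, limma adjusted p = 0.0788), and PORB (a chlorophyll synthesis enzyme) by -0.42 ± 0.12 (0.158), with all induced arrays below all controls. The other measured shoot marker, RCA, differed by -0.15 ± 0.17 (SE, limma adjusted p = 0.786), and its groups overlapped. The part of these differences in the values of the XTH genes was not tested.

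Of the TBL members, 15 of 22 had a change below 0 after ANAC092 induction, against 56.8% of all probe sets. In limma 0 passed (4 at an unadjusted p under 0.05, all lower). TBL37 (AT2G34070) came nearest. It had 10.47, 10.55 and 10.38 on the ANAC092 induced arrays, against 10.99, 10.91 and 11.29 on the empty vector arrays. The induced arrays lay below all controls, with empty vector replicate 3 the highest of the 6. The change was -0.60 ± 0.13 (SE, n = 3 per group, limma adjusted p = 0.0656). It passed after quantile normalization (-0.62, adjusted p = 0.0452) and when only brighter probe sets were tested (adjusted p = 0.0423), but in none of the 6 fits without 1 array (0.0527 to 0.285).

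TBL39 (AT2G42570) had 7.39, 7.41 and 7.38 on the ANAC092 induced arrays, against 7.80, 7.76 and 7.59 on the empty vector arrays. The 3 induced arrays were close together and below every control, and the change was -0.32 ± 0.10 (SE, n = 3 per group, limma adjusted p = 0.215). TBL38 (AT1G29050) showed the same layout, with 8.22, 8.15 and 8.16 on the ANAC092 induced arrays, against 8.54, 8.50 and 8.44 on the empty vector arrays and a change of -0.31 ± 0.09 (SE, n = 3 per group, limma adjusted p = 0.192). TBL25 (AT1G01430), a gene of the group that acetylates mannan, had 9.77, 9.54 and 9.70 on the ANAC092 induced arrays, against 10.01, 9.88 and 10.04 on the empty vector arrays. Its change was -0.30 ± 0.11 (SE, n = 3 per group, limma adjusted p = 0.293). TBL36 had 7.01, 7.32 and 6.76 on the ANAC092 induced arrays, against 7.54, 7.30 and 7.24 on the empty vector arrays, where induced replicate 2 lay among the controls (change -0.33).

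In the other measured mannan acetylation genes the groups overlapped: TBL23 differed by -0.19 and TBL26 by 0.01. Of the genes that acetylate xylan, TBL28, TBL30, TBL32, TBL34 and TBL35 differed by -0.17, -0.13, -0.18, 0.09 and -0.23, and none passed. The TBL32 probe set is of a type that can detect more than 1 transcript.

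TBL43 and TBL42 had their high value on 1 array. TBL43 had 6.14, 7.73 and 6.15 on the ANAC092 induced arrays, against 6.36, 6.57 and 6.16 on the empty vector arrays, so that induced replicate 2 alone stood above the rest. Its change was 0.31 with all arrays and -0.21 without that array. TBL42 had 6.55, 7.04 and 6.56 on the ANAC092 induced arrays, against 6.84, 6.64 and 6.45 on the empty vector arrays, with a change of 0.07 that was -0.09 without induced replicate 2. TBL34 ran the other way, with 6.75, 5.97 and 6.67 on the ANAC092 induced arrays, against 6.35, 6.29 and 6.48 on the empty vector arrays. There induced replicate 2 was the lowest of the 6 arrays and replicates 1 and 3 the highest. The remaining TBL genes (TBL15, TBL16, TBL18, TBL19, TBL20, TBL21, TBL41 and TBL45) differed by between -0.19 and 0.07, and none passed.

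No expansin passed in limma after ANAC092 induction: of 18, 0 passed and 0 had an unadjusted p under 0.05, while 10 had a change above 0 and 8 below. EXPA8 (AT2G40610), an alpha-expansin gene, was the lowest. It had 5.91, 5.81 and 6.03 on the ANAC092 induced arrays, against 6.48, 6.05 and 6.08 on the empty vector arrays. The induced arrays lay just below the controls, and the change was -0.29 ± 0.14 (SE, n = 3 per group, limma adjusted p = 0.491). The beta-expansin gene EXPB1 had 5.98, 5.81 and 6.26 on the ANAC092 induced arrays, against 6.35, 6.34 and 6.20 on the empty vector arrays, overlapping at induced replicate 3 (change -0.28). EXPA9 differed by -0.17, with 6.76, 6.38 and 6.80 on the ANAC092 induced arrays, against 6.79, 6.72 and 6.95 on the empty vector arrays, and its low value came from induced replicate 2.

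At the upper end, EXLB1 (AT4G17030), an expansin-like gene of a subfamily with no shown loosening activity, had 7.68, 8.26 and 8.02 on the ANAC092 induced arrays, against 7.81, 7.69 and 7.56 on the empty vector arrays. Induced replicate 1 lay among the controls, and the change was 0.30 ± 0.16 (SE, n = 3 per group, limma adjusted p = 0.525). EXPA4 (AT2G39700) had 9.27, 9.49 and 9.05 on the ANAC092 induced arrays, against 9.01, 8.79 and 9.45 on the empty vector arrays. Empty vector replicate 3 was second only to induced replicate 2, 0.55 above the mean of the other controls, and the change was 0.18 ± 0.19 (SE, n = 3 per group, limma adjusted p = 0.769). EXLA1 differed by 0.16, with 11.54, 11.74 and 11.75 on the ANAC092 induced arrays, against 11.44, 11.65 and 11.48 on the empty vector arrays and overlapping groups.

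EXLA2 showed the same split among controls as EXPA4. It had 8.44, 8.46 and 8.53 on the ANAC092 induced arrays, against 8.21, 8.20 and 8.83 on the empty vector arrays, so that empty vector replicate 3 was above every other array. The beta-expansin genes EXPB2 and EXPB3 and the root hair expansin genes EXPA7 and EXPA18 were highest on induced replicate 2, which stood above the mean of replicates 1 and 3 by 1.03, 0.495, 0.582 and 0.664. Their changes were 0.13, 0.12, 0.13 and 0.10. EXLA3, EXPA15, EXPA16, EXPA20, EXPA21, EXPA24 and EXPB5 differed by between -0.14 and 0.07.

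The 95% interval of the change, unadjusted, lay inside -1 to 1 for 47 of the 49 members. The exceptions were XTH19 (-1.32 to -0.56) and TBL43 (-0.63 to 1.26). Over all probe sets the interval lay inside these limits for 21439 of 22746.

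**Figure D2:**
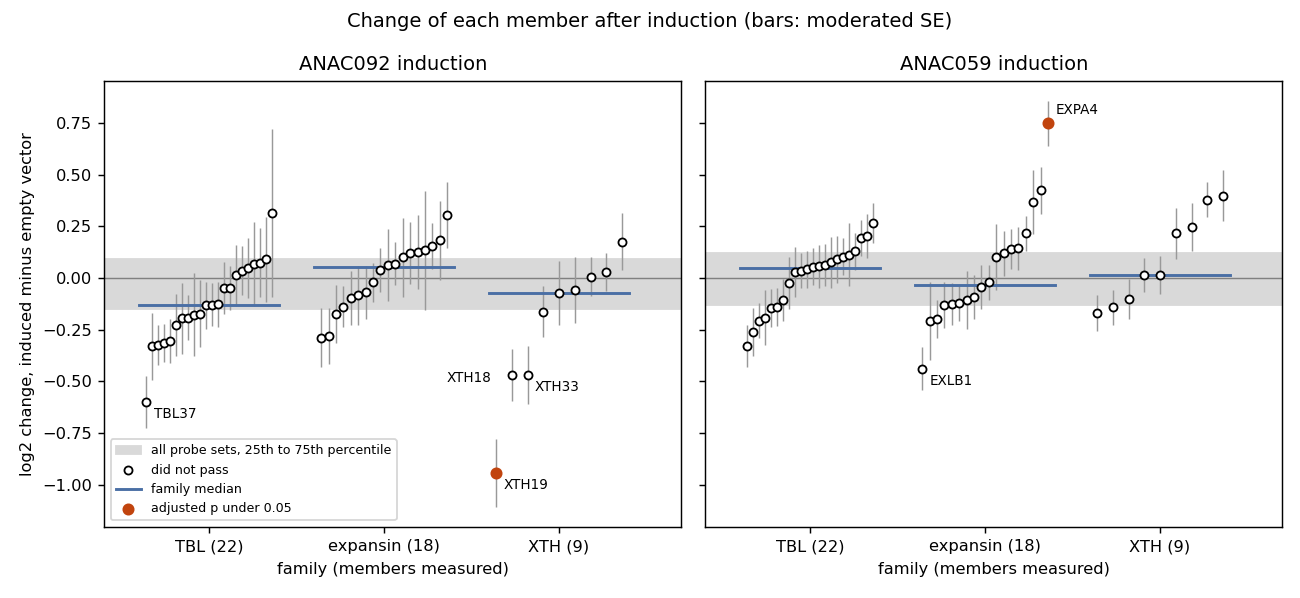
Points are the log2 change of each member (induced minus empty vector) by family, with moderated standard errors, after ANAC092 induction on the left and ANAC059 induction on the right. Filled points passed the threshold (XTH19 and EXPA4), blue lines are family medians, and the grey band holds the middle part of all probe sets, from -0.15 to 0.09 on the left and from -0.13 to 0.12 on the right.

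After ANAC059 induction 1 of 49 members passed, the alpha-expansin gene EXPA4, which rose. Of all probe sets 2.99% were called, 1.65% as higher and 1.34% as lower. With 2 arrays per group, induced and empty vector arrays did not overlap at many genes: the induced arrays were above all controls for 14 of 49 members, against 26.2% of all probe sets, and below them for 12, against 26.8%. These shares are near the background. An unadjusted limma p under 0.05 was found for 6 members that were higher and 3 that were lower, against 20.4% of all probe sets in either direction. Of the 22746 probe sets 2516 were higher and 2133 lower at that p. The median log2 change was 0.05 over the TBL genes, -0.03 over the expansins and 0.02 over the XTH genes, against -0.01 over all probe sets. These medians did not keep their sign or size: the TBL median was -0.06 without induced replicate 2, and after quantile normalization the expansin median was 0.06 and the XTH median 0.12.

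EXPA4 had 9.67 and 9.65 on the ANAC059 induced arrays, against 9.04 and 8.79 on the empty vector arrays. The induced arrays were nearly equal and above both controls. The change was 0.75 ± 0.11 (SE, n = 2 per group, limma adjusted p = 0.0205), a level 1.68-fold higher in induced shoots, with a 95% interval of 0.49 to 1.00. It passed without empty vector replicate 1 (adjusted p = 0.0451) and missed narrowly when the other control (0.0684) or either of the induced arrays was left out (0.0562 without replicate 1, 0.0560 without replicate 2), fits in which the spread of a lone array was taken from the group that still had replicates. Empty vector replicate 3 was not in this set, and in the ANAC092 set it lay 0.55 above the mean of empty vector replicates 1 and 2 for EXPA4. The shoot marker sum was 13.40 and 13.47 on the ANAC059 induced arrays, against 12.98 and 13.08 on the empty vector arrays. In the ANAC092 set, normalized separately, it was 13.33 on empty vector replicate 3, beside 12.94 and 13.02 on replicates 1 and 2. Of the 3 shoot markers the Rubisco activase gene RCA rose by 0.63 ± 0.10 (SE, limma adjusted p = 0.0251), while PORB differed by -0.03 (0.861) and PRK by 0.07 (0.664). The root marker sum was 11.93 and 11.76 on the induced arrays, against 11.65 and 11.37 on the empty vector arrays, with no overlap. Of the root markers PYK10 differed by 0.35 ± 0.13 (SE, limma adjusted p = 0.194), EXPA7 by -0.04 (0.845) and EXPA18 by -0.12 (0.452). The actin pair given first above differed by 1.01 and 1.06 on the induced arrays, against 0.779 and 0.880 on the empty vector arrays. The other actin pair differed by 2.59 and 2.45, against 2.03 and 2.26, so that both actin pairs separate the groups here. In both GAPDH pairs the groups overlapped. The first GAPDH pair gave -0.006 and 0.057 on the induced arrays, against 0.452 and 0.030 on the empty vector arrays. The second gave 0.034 and -0.072, against -0.087 and 0.037. The part of these differences in the EXPA4 result was not tested.

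**Figure D3:**
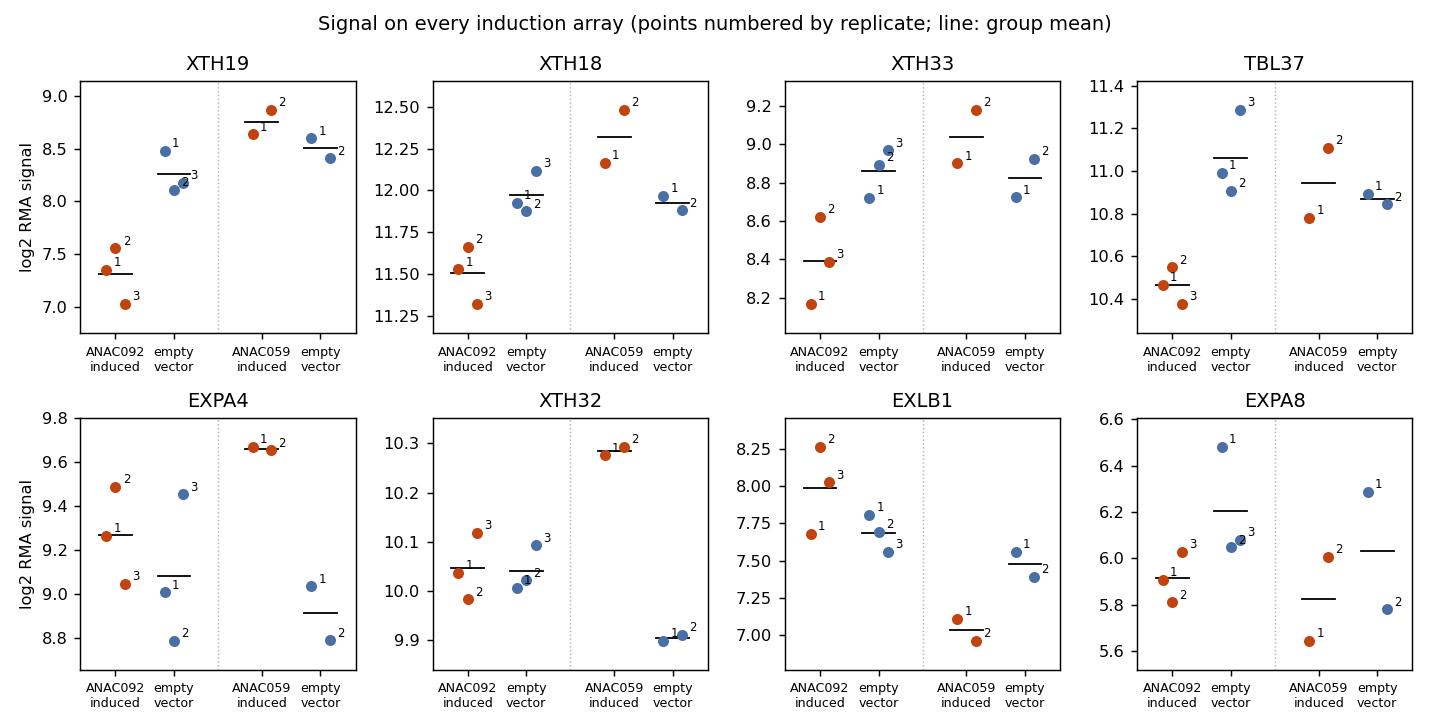
Each panel plots the log2 RMA signal of 1 gene on every induction array, numbered by replicate, with a line at the group mean; the ANAC092 and ANAC059 sets, either side of the dotted line, were normalized separately, and the vertical scales differ. XTH19, XTH18, XTH33 and TBL37 are lower on all ANAC092 induced arrays than on their controls, and EXPA4 is higher on both ANAC059 induced arrays than on the controls of that set, while in the ANAC092 set empty vector replicate 3 is above the other controls.

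EXPA15 (AT2G03090), another alpha-expansin gene, had 8.96 and 8.99 on the ANAC059 induced arrays, against 8.69 and 8.41 on the empty vector arrays, and both induced arrays were above the controls. Its change was 0.42 ± 0.12 (SE, n = 2 per group, limma adjusted p = 0.117), beside 0.07 after ANAC092 induction. EXLA2 had 8.37 and 8.84 on the ANAC059 induced arrays, against 8.28 and 8.20 on the empty vector arrays, with a change of 0.37 ± 0.15 (SE, n = 2 per group, limma adjusted p = 0.247); as given above, empty vector replicate 3 was high for this gene too, 0.62 above the other controls of the ANAC092 set. EXPB3 differed by 0.22.

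On the low side EXLB1 had 7.11 and 6.96 on the ANAC059 induced arrays, against 7.56 and 7.39 on the empty vector arrays. The induced arrays were both below the controls, and the change was -0.44 ± 0.10 (SE, n = 2 per group, limma adjusted p = 0.0860), beside 0.30 after ANAC092 induction. EXPA8 had 5.64 and 6.01 on the ANAC059 induced arrays, against 6.29 and 5.78 on the empty vector arrays, with overlapping groups and a change of -0.21 ± 0.19 (SE, n = 2 per group, limma adjusted p = 0.571). EXPB5 differed by -0.20, with 5.69 and 5.83 on the ANAC059 induced arrays, against 5.96 and 5.95 on the empty vector arrays. The root hair genes EXPA7 and EXPA18 differed by -0.04 and -0.12, and the other expansins (EXLA1, EXLA3, EXPA9, EXPA16, EXPA20, EXPA21, EXPA24, EXPB1 and EXPB2) by between -0.13 and 0.14, none past the threshold.

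In the XTH family 0 of 9 passed in limma after ANAC059 induction, and 2 had an unadjusted p under 0.05, both higher. XTH32 (AT2G36870) had 10.28 and 10.29 on the ANAC059 induced arrays, against 9.90 and 9.91 on the empty vector arrays. Arrays of a group were nearly equal, and the change was 0.38 ± 0.08 (SE, n = 2 per group, limma adjusted p = 0.0722). It passed when only brighter probe sets were tested (adjusted p = 0.0368) and with an intensity trend in the variance (0.0423), and in none of the 4 fits that left out 1 array. XTH18 had 12.16 and 12.48 on the ANAC059 induced arrays, against 11.97 and 11.88 on the empty vector arrays, with a change of 0.40 ± 0.12 (SE, n = 2 per group, limma adjusted p = 0.150). XTH19 had 8.64 and 8.86 on the ANAC059 induced arrays, against 8.60 and 8.41 on the empty vector arrays, with a change of 0.25 ± 0.12 (SE, n = 2 per group, limma adjusted p = 0.286). For both, the induced arrays lay above the controls, whereas the ANAC092 induced arrays lay below theirs; this difference between the inductions was not tested. XTH33 differed by 0.22, with overlapping groups.

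At the low end XTH20 had 5.91 and 5.90 on the ANAC059 induced arrays, against 6.11 and 6.03 on the empty vector arrays, and its change was -0.17. XTH21 differed by -0.14 and XTH26 by -0.10, and their induced arrays also lay below the controls. These 3 genes had a mean signal below the median of the set. XTH16 and XTH29 differed by 0.01 and 0.02.

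No TBL gene passed after ANAC059 induction in limma (0 of 22, with 3 at an unadjusted p under 0.05, 1 higher and 2 lower). TBL26, of the mannan acetylation group, had 8.24 and 8.33 on the ANAC059 induced arrays, against 7.94 and 8.10 on the empty vector arrays, and the change was 0.27 ± 0.10 (SE, n = 2 per group, limma adjusted p = 0.198). TBL34, of the xylan acetylation group, had 6.43 and 6.19 on the ANAC059 induced arrays, against 6.14 and 6.07 on the empty vector arrays, a change of 0.20, and TBL16 had 8.19 and 8.22 on the ANAC059 induced arrays, against 7.96 and 8.06 on the empty vector arrays, a change of 0.19. In these 3 genes both induced arrays were above both controls.

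TBL20 had 5.44 and 5.37 on the ANAC059 induced arrays, against 5.84 and 5.63 on the empty vector arrays, with a change of -0.33 ± 0.10 (SE, n = 2 per group, limma adjusted p = 0.151). TBL30 had 5.27 and 5.06 on the ANAC059 induced arrays, against 5.54 and 5.32 on the empty vector arrays, with a change of -0.26, and TBL39 had 7.66 and 7.69 on the ANAC059 induced arrays, against 7.91 and 7.85 on the empty vector arrays, with a change of -0.21. For all 3 the induced arrays lay below the controls. TBL37, TBL38 and TBL25, whose ANAC092 induced arrays lay below their controls, differed by 0.08, 0.11 and 0.04 after ANAC059 induction, with overlapping groups. The other TBL genes differed by between -0.19 and 0.13. The 95% interval lay inside -1 to 1 for 48 of 49 members, all but EXPA4, whose upper bound lay just above 1. Over all probe sets the interval lay inside these limits for 22322 of 22746.

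Besides XTH18 and XTH19, 3 pairs of members are direct neighbours in the gene table. TBL19 and TBL21 differed by -0.05 and 0.07 after ANAC092 induction and by -0.14 and 0.06 after ANAC059 induction. TBL28 and TBL30 differed by -0.17 and -0.13, and by 0.09 and -0.26, in the same order. EXLA1 and EXLA3 differed by 0.16 and -0.02, and by -0.13 and 0.14. The mean signal was above the median of the set for 20 members in each set (8 TBL genes, 7 expansins and 5 XTH genes in the ANAC092 set, and 10, 5 and 5 in the ANAC059 set).

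Other wall genes were examined with lists by symbol. Endoglucanases of the GH9 family, which cut glucan chains in the wall, had 15 measured genes, of which 0 passed after ANAC092 induction and 2 rose after ANAC059 induction, against 1.65% of all probe sets called higher. The median over the 15 was -0.11 after ANAC059 induction, and GH9A3, at the low end, differed by -0.53 ± 0.13 (SE, limma adjusted p = 0.0969). GH9C2 had 9.55 and 9.51 on the ANAC059 induced arrays, against 8.85 and 8.76 on the empty vector arrays, and rose by 0.72 ± 0.09 (SE, limma adjusted p = 0.0116). GH9B8 had 6.44 and 6.51 on the ANAC059 induced arrays, against 6.01 and 6.01 on the empty vector arrays, and rose by 0.47 ± 0.09 (SE, limma adjusted p = 0.0436). For GH9B8, empty vector replicate 3 of the ANAC092 set stood at 6.74, against 6.13 and 6.07 on replicates 1 and 2. Of 9 genes of hemicellulose synthesis, 1 of pectin synthesis (GAUT15), 1 pectin methylesterase (PME61) and 2 of pectin or xyloglucan breakdown (BGAL16 and ADPG1), 0 passed in either induction. Acetyl donor genes, cellulose synthases and wall glycoproteins had 0 measured genes under this annotation.

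In leaf 11 the largest difference of any member was that of EXPA8. Its log2 signal was 7.54 in the ANAC059 line and 9.21 in the ANAC092 line, against 6.33 in wild type. The difference to wild type was 2.88 in the ANAC092 line, a level 7.35-fold higher, and 1.20 in the ANAC059 line. It ranked 3 among the rises of all 22746 probe sets in the ANAC092 line and 689 in the ANAC059 line. With 1 array per genotype, none of the leaf differences has a replicate check. Differences of at least 1 are counted below as a description.

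**Figure D4:**
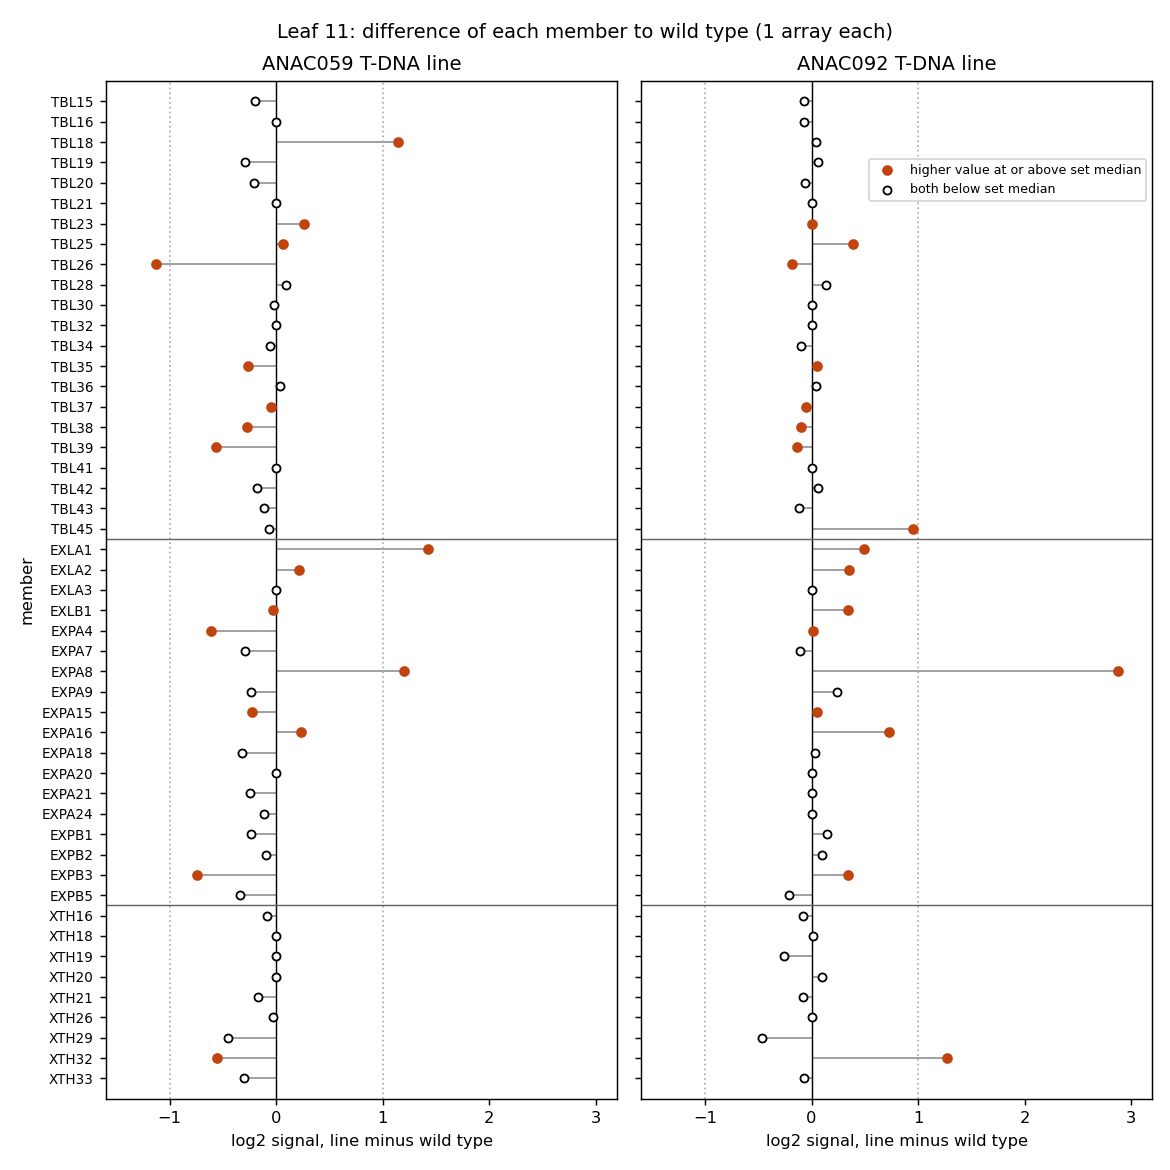
Points show the log2 signal of each member in leaf 11 of a T-DNA line minus that in wild type (ANAC059 line on the left, ANAC092 line on the right, 1 array each), filled where the higher of both values reached the median of the leaf set, 5.76. EXPA8 is far to the right in the ANAC092 line, and most other members lie between the dotted lines at -1 and 1.

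In the ANAC092 line 2 members were at least 1 higher than wild type and 0 at least 1 lower, where 0.98% and 0.822% of all probe sets were (1.8% either way). Beside EXPA8 this was XTH32, with 6.62 in the ANAC059 line and 8.44 in the ANAC092 line, against 7.18 in wild type. It was 1.27 from wild type in the ANAC092 line and -0.56 in the ANAC059 line. TBL45 followed at 0.95, with 5.57 in the ANAC059 line and 6.60 in the ANAC092 line, against 5.65 in wild type. On the low side of the members bright enough to be named, TBL26 was at -0.19, TBL39 at -0.14 and TBL38 at -0.10.

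In the ANAC059 line 3 members were at least 1 higher and 1 at least 1 lower, where 4.65% and 0.611% of all probe sets were (5.26% either way). The 3 were EXLA1, EXPA8 and TBL18. EXLA1 had 9.13 in the ANAC059 line and 8.19 in the ANAC092 line, against 7.70 in wild type, a difference of 1.42. TBL18 had 6.46 in the ANAC059 line and 5.36 in the ANAC092 line, against 5.32 in wild type, a difference of 1.14, and the ANAC092 line was close to wild type. TBL26 had 7.20 in the ANAC059 line and 8.14 in the ANAC092 line, against 8.33 in wild type, a difference of -1.13. EXPB3 and EXPA4 were next on the low side, at -0.74 and -0.61. EXPB3 had 5.53 in the ANAC059 line and 6.61 in the ANAC092 line, against 6.27 in wild type, and EXPA4 had 7.74 in the ANAC059 line and 8.37 in the ANAC092 line, against 8.36 in wild type. In the ANAC059 line 32 of the 49 members had a difference below 0 and 10 above, with a median of -0.08, against 10726 of 22746 probe sets below 0 and a median of 0.00. In the ANAC092 line 16 members lay below 0 and 23 above, against 8863 of 22746 probe sets below 0.

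In leaf 11, 17 of 49 members reached the median signal of the leaf set on at least 1 of the compared arrays, in each comparison, as did 11969 of 22746 probe sets in the ANAC059 line's comparison and 11544 in the ANAC092 line's. Of the 9 XTH genes, XTH32 did so. A low signal does not show a low level, since probes differ. XTH18, XTH19 and XTH33 had 3.69, 5.24 and 5.37 in wild type, all below that median. TBL21, TBL32, TBL41 and EXLA3 had identical values on all 3 leaf arrays, as did 14.7% of all probe sets. The shoot marker sum was 14.15 in both T-DNA lines, against 14.17 in wild type. Repeated values enter this sum: RCA had an identical 13.58 on all 3 arrays. PRK had an identical 12.26 in both lines, against 12.35 in wild type. PORB had an identical 9.87 in the ANAC059 line and wild type, and 9.91 in the ANAC092 line. The near equality of the sums thus does not show equal leaf composition. The root marker sum was 6.41 in the ANAC059 line and 6.65 in the ANAC092 line, against 6.71 in wild type, with PYK10 at 3.98 and 4.04 in the lines, against 4.23 in wild type. For the actin pair given first above, the 3' minus 5' difference was 2.84 and 2.55 in the ANAC059 and ANAC092 lines, against 2.61 in wild type, and for the other pair it was 4.18 and 3.60, against 4.18 in wild type. The part of this difference in the leaf values was not tested.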

How the data were processed

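The deposited values are log2 signals that the authors made with RMA, which corrects background, normalizes by quantiles and summarises probes, run separately on 3 sets of arrays, per the labels and the submitters' processing notes. The sources used here do not name the software. Sequences of the members are not shown. From the deposited log2 values, 22746 probe sets (64 control probe sets left out) were fitted with limma 3.58.1 in R 4.3.3 (group as the only term, two-sided), separately in the ANAC092 set (3 against 3) and the ANAC059 set (2 against 2), with p-values adjusted by Benjamini and Hochberg's method across all of these probe sets and called under 0.05. The fit was tested on simulated data. Titles call the induction arrays biological replicates. Brighter probe sets are those whose mean lies above the median of the set (7.65, 7.60). Leaf arrays, 1 per genotype, were compared without a test. Gene names came from the platform annotation, loci and gene order from a TAIR10.1 gene table, with all 49 members matched; the array's build is not given, and no coordinates are reported.

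The members, lists and alternatives were chosen with earlier results of these data known. The rule for named genes took members past the threshold, the 3 highest and 3 lowest changes per family and induction, EXPA8, and in leaf 11 the 3 highest and 3 lowest differences per line among members whose higher value reached the leaf median of 5.76; other members and markers were named after their values were seen. Alternatives were quantile normalization, centring on array medians, brighter probe sets only, an intensity trend, a replicate block, adjustment over probe sets of 1 gene, each array left out, and, in the ANAC092 set, induced replicates 1 and 3 averaged and a fit against empty vector replicate 3 alone. The small number of arrays limits the precision, and values near background could not be marked as such without detection calls.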

Additional observations from a re-analysis of the deposited data

Results flagged for a closer look

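The induced arrays of XTH18 and XTH19 lay on opposite sides of their controls in the inductions. XTH18 differed from empty vector by -0.47 after ANAC092 induction and by 0.40 after ANAC059 induction, and XTH19 by -0.94 and 0.25. Every ANAC092 induced array was below, and every ANAC059 induced array above, all empty vector arrays of its set. The difference between the inductions was not tested, since the sets were normalized separately and share control arrays. With 2 arrays per group, 26.2% of all probe sets had all ANAC059 induced arrays above the controls. In the ANAC092 set, 12.4% of all probe sets had all induced arrays below the controls. The share of probe sets with both was not counted, so this layout is not set apart from the background. XTH32 in leaf 11 differed from wild type by -0.56 in the ANAC059 line and by 1.27 in the ANAC092 line, with 1 array each, and this difference was not tested either.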

How the results depend on the processing

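After ANAC092 induction, where 1 member passed, 2 passed among brighter probe sets (TBL37 and XTH19), 0 against empty vector replicate 3 alone, 0 with induced replicates 1 and 3 averaged, and 0 to 1 when 1 array was left out. Quantile normalization gave 1, TBL37 in place of XTH19. After ANAC059 induction, where 1 passed, 2 passed among brighter probe sets and 2 with an intensity trend (EXPA4 and XTH32 in the trend fit), and 0 to 1 when 1 array was left out. The replicate block left 1 member called in the ANAC092 set (XTH19, adjusted p = 0.0162) and 0 in the ANAC059 set (EXPA4, 0.0993), where 0 of all probe sets passed. Replicate numbers were not taken to pair arrays: deviations of same-numbered arrays correlated at -0.11, 0.27 and 0.10 in the ANAC092 set and at 0.03 in the ANAC059 set, and not every array correlated best with its own number. Among the named members, reversed signs were found only for uncalled changes: against empty vector replicate 3 alone EXPA4 (-0.19), TBL34 (-0.015) and XTH32 (-0.047) after ANAC092 induction, with induced replicates 1 and 3 averaged TBL34 (-0.032) and XTH32 (-0.0097), and with quantile normalization XTH32 (-0.019). With 1 array left out, the change after ANAC092 induction ranged from -0.052 to 0.34 for TBL34, from -0.086 to 0.17 for TBL42, from -0.21 to 0.58 for TBL43, from -0.0089 to 0.051 for XTH26 and from -0.030 to 0.038 for XTH32, and that of EXPA8 after ANAC059 induction from -0.46 to 0.046. The cause was not tested. Family medians moved by more than the spread between replicates in 11 values under alternatives and by less in 61. Among brighter probe sets, which hold only 5 of the expansins and 5 of the XTH genes, they were 0.37 and 0.25 after ANAC059 induction. These medians thus cover fewer genes than the family medians. In the ANAC059 line, quantile normalization moved 7 of the leaf differences, each to a lower value. Leaf counts at a difference of 1 kept their values, 4 and 2, under the alternatives run.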
